A study of Mus musculus with 8 samples.

Results

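The endoplasmic reticulum (ER) folding and collagen export genes examined here were 39 genes, named for their known roles. They were chosen with earlier results of these data known, so the comparisons with all genes below are description only. All 39 were found among the 13937 genes of the count table, and all 39 were among the 13509 genes that passed the filter on low counts. By role they were 10 chaperones and co-chaperones of the ER lumen, 6 disulfide and proline isomerases, 6 stress sensors and transcription factors, 4 genes for the degradation of misfolded proteins, 5 genes for entry into the ER, and 8 genes of COPII (coat protein complex II) export and retrieval. The cells were primary astrocytes from the brains of C57BL/6 pups on postnatal day 1, kept in serum-containing medium for 2 weeks and shaken to remove oligodendrocyte precursors and neurons. RNA sequencing covered 4 groups of 2 biological replicates: wild-type (WT) astrocytes left untreated, WT astrocytes exposed for 24 h to TGF-β at 10 ng/ml, and the same pair from knockout (KO) pups lacking RGC-32, the protein encoded by Rgcc. The growth factor was added to astrocytes that had been starved of serum overnight, so the response was measured against a starved state. The labels give neither the pups, litters or cultures behind each replicate nor the part of Rgcc that was deleted, so p-values measure the spread between these libraries, which may be partly technical.

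Proteins destined for secretion enter the ER through the Sec61 channel, are folded by lumenal chaperones and oxidised by disulfide isomerases, and leave in COPII-coated carriers. When unfolded proteins accumulate, the sensors ATF6, IRE1 (encoded by ERN1) and PERK (encoded by EIF2AK3) start the unfolded protein response, in which ATF6 and the spliced form of XBP1 switch on chaperone and degradation genes. Procollagen places particular demands on this route, since its chains need prolyl hydroxylation and proline isomerisation and its rigid trimer is too long for an ordinary COPII vesicle. CREB3L1 and CREB3L2 are ER-anchored transcription factors known for the secretory programme of cells that make collagen. TGF-β is a classical inducer of collagen synthesis, and reactive astrocytes contribute extracellular matrix to the glial scar.

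The libraries held between 14920561 and 18956038 counts. Rgcc, the targeted gene, had 80 and 94 counts in WT controls, 215 and 362 in WT with TGF-β, 61 and 28 in KO controls, and 64 and 26 in KO with TGF-β. It was therefore lower in the KO libraries but was not at 0. All 10 astrocyte markers tested were present, and their summed level was 4396 to 4632 CPM (counts per 1000000, TMM scaled) in WT controls and 3440 to 3565 CPM with TGF-β, against 5071 to 5781 and 4263 to 4555 CPM in KO. Of 15 meningeal fibroblast markers 14 were tested, at 6012 to 7499 and then 10777 to 12182 CPM in WT and at 5090 to 5213 and then 8413 to 8488 CPM in KO. All 12 microglial markers were tested and lay between 1374 and 1861 CPM in sum, with 0 past the threshold used below in either genotype. Of 9 oligodendrocyte lineage markers 8 were tested, at 229 to 266 and then 461 to 545 CPM in WT and at 221 to 262 and then 374 to 491 CPM in KO. Most of that difference was CSPG4, at 38.5 and 25.4 CPM in WT controls and 257 and 302 CPM with TGF-β. Without CSPG4 the sum of the other 7 was 204 to 228 and then 204 to 243 CPM in WT, and 197 to 228 and then 222 to 271 CPM in KO. Of 7 neuronal markers 4 were tested, at 304 to 315 and then 377 to 395 CPM in WT. In KO the neuronal sum was 278 to 336 and then 353 to 384 CPM. Of 8 endothelial markers 7 were tested, at 104 to 129 and then 76 to 80 CPM in WT. In KO the endothelial sum was 106 to 132 and then 72 to 85 CPM. The markers not tested were SLC6A13, with 0 to 20 counts, and MOG, RBFOX3, SNAP25, DCX and CLDN5, which had no row under these names among the deposited counts.

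Sequence elements near the start of transcription are shown first, because the unfolded protein response acts on chaperone genes through them. The RefSeq promoter table (build GRCm38.p6, 250 bases before to 50 bases after each start) held 32 of the 39 genes; HYOU1, FKBP10, ATF6, CREB3L1, SEC61A1, SPCS3 and KDELR2 were not matched. Exact copies of 3 elements were searched on both strands: the ER stress element (CCAAT, then any 9 bases, then CCACG), its second form (ATTGG, then any single base, then CCACG), and the 8-base element TGACGTGG, whose reverse complement CCACGTCA shares the letters CCACG with the others. Below, the bases in capitals are the match, and each promoter is written in the direction of its gene. HSPA5 encodes the main ER chaperone and has the best studied stress element (chr2:34771840-34772139, plus strand). SEC24D (chr3:123267246-123267545, plus strand) and KDELR3 (chr15:79516158-79516457, plus strand) are shown because they are the export and retrieval genes that held the 8-base element before their start.
HSPA5: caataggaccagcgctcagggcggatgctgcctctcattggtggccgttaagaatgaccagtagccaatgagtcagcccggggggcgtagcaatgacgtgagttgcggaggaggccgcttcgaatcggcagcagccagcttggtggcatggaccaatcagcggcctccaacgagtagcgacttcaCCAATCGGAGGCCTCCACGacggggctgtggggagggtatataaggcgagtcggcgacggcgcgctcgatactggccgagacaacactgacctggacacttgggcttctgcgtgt
SEC24D: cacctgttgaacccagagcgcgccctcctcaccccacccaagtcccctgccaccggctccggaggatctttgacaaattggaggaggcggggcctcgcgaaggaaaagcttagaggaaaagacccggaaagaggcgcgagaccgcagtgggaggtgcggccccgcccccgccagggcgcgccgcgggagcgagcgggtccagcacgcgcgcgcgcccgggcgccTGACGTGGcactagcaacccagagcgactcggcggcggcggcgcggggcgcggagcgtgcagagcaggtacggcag
KDELR3: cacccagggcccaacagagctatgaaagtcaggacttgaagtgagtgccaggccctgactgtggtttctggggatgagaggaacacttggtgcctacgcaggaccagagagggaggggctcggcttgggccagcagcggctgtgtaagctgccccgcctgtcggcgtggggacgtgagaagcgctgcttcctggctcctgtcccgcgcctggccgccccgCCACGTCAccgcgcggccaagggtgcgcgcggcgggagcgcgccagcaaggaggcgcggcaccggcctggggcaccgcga

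The remaining matches are given with 5 bases on either side, so that the shared letters can be compared between genes. The first 8 are the ER stress element, those of HERPUD1 and DNAJB11 are the second form, and that of SEC23A is the 8-base element. The HSP90B1 matches lie at chr10:86705638-86705656 and chr10:86705533-86705551, and the SEC23A match at chr12:59012004-59012011.
HSP90B1 first match: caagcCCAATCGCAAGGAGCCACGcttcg
HSP90B1 second match: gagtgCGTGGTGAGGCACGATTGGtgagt
CALR: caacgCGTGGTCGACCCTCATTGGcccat
CANX: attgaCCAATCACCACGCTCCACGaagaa
DNAJC3: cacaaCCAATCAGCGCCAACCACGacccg
CRELD2: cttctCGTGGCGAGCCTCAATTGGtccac
PDIA6: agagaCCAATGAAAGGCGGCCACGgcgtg
SYVN1: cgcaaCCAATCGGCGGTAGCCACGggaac
HERPUD1: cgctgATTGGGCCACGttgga
DNAJB11: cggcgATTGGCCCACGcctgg
SEC23A: cccttTGACGTGGcagag

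Of the 32 genes with a promoter entry, 8 (25%) held the ER stress element: HSPA5, HSP90B1, CALR, CANX, DNAJC3, CRELD2, PDIA6 and SYVN1. Among the 10550 tested genes with an entry, 19 (0.180%) held it, and among all 32851 promoter windows 39 (0.119%) did. Thus 8 of the 19 tested genes with an exact ER stress element were in the list. The list was named for roles that include the unfolded protein response, which acts through these elements. A high share therefore follows from how the genes were named and is given as description. The second form was found in 2 of the 32 genes (6.25%), DNAJB11 and HERPUD1, and in 8 of the 10550 (0.0758%). The 8-base element was found in 3 of the 32 (9.38%), SEC23A, SEC24D and KDELR3, and in 112 of the 10550 (1.06%). No matched site overlapped another in these genes. By role, 7 of the 9 chaperones with an entry held one of the longer forms, as did 1 of 5 isomerases and 2 of 4 degradation genes, while the 3 carriers of the 8-base element were all among the 7 export and retrieval genes with an entry. Near matches were not counted, and a match here is a description of the letters and not a measured binding site.

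**Figure D1:**
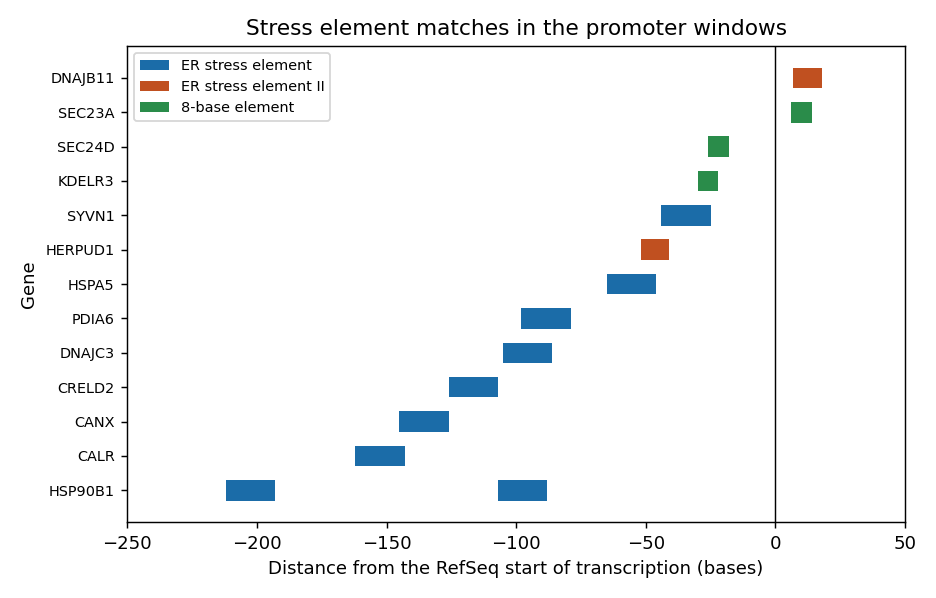
Position of each element match (bars, to scale) in the promoter windows of the 13 genes that held one, with the distance from the RefSeq start of transcription in bases on the x axis. HSP90B1 has 2 matches, 12 of the 14 matches begin before the start, and the others, in SEC23A and DNAJB11, begin 6 and 7 bases after it.

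Levels were compared between genes only per length, as the FPKM values (fragments per kilobase of transcript, scaled to depth) that the authors made with Cufflinks. Lumenal chaperones made up 47.7% of the summed mean FPKM of the list, the isomerases 25.7%, the entry genes 10.2%, export and retrieval 10.2%, the sensors and factors 3.41% and the degradation genes 2.71%. CALR, which encodes the lectin chaperone calreticulin, was the highest in all 4 groups, at 395 ± 19.5 FPKM (SD, n = 2) in WT controls and 531 ± 36.3 with TGF-β. HSPA5 was the next at 302 ± 10.1 and 446 ± 5.37 FPKM, and its libraries did not overlap those of CALR in any group. PDIA3 (229 ± 5.90 FPKM) and HSP90B1 (225 ± 8.22 FPKM) followed in WT controls without a difference beyond their spread. At the other end of the order stood ERN1 at 3.13 ± 0.0110 FPKM, TRAM2 at 4.81 ± 0.117, EIF2AK3 at 6.54 ± 0.301 and ATF6 at 7.93 ± 0.270. The 3 stress sensors thus stood among the 4 lowest genes in untreated WT cells, and ERN1 was the lowest in every group. With TGF-β the order shifted most for KDELR3, from place 31 to place 21 of 39 in WT, and next for DNAJB9, from place 18 to place 26, and SEL1L, from place 20 to place 28.

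Most of these genes rose with TGF-β in both genotypes, and none fell past the threshold. Together they took 0.914% and 0.876% of all counts in the WT control libraries and 1.21% and 1.31% in the WT libraries with TGF-β. In KO astrocytes the share was 0.883% and 0.835% without and 1.18% and 1.22% with TGF-β. The treated libraries did not overlap the controls in either genotype. Errors of log2 changes below are standard errors. Genes were called where TGF-β moved them by 0.6 or more on the log2 scale, up or down, with an adjusted p below 0.05. That p came from edgeR's quasi-likelihood test, with Benjamini-Hochberg adjustment over all tested genes. The study used the same cutoff values with another test, DESeq2, and described its false discovery rate as taken after Bonferroni correction. In WT, 16 of the 39 rose past both limits, where 7.72% of all tested genes did, and 0 fell, where 5.65% of all genes did. In KO, 17 of the 39 rose, against 6.61% of all genes, and 0 fell, against 4.93%. At any fold change, 34 of 39 rose in WT (18.6% of all genes) and 35 in KO (16.6%). The median log2 fold change of the 39 was 0.58 in WT and 0.57 in KO, beside medians of -0.0048 and 0.0031 over all tested genes.

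Each gene was also compared library by library. In WT, all 39 had both treated libraries above both controls, which held for 35.4% of all tested genes. In KO this held for 38 of 39 and for 34.3% of all genes, and the exception was SAR1B. The log2 fold changes spanned 0.040 to 1.60 for WT astrocytes, and -0.0066 to 1.83 for KO astrocytes. The same 14 genes passed the threshold in both genotypes. HSP90B1 and CRELD2 passed it in WT but not in KO, and XBP1, CREB3L1 and SEC61B in KO but not in WT. At any fold change, 34 passed in both genotypes, CREB3L1 in KO alone, and DNAJB9, SDF2L1, ATF6 and SAR1B in neither. Under every alternative setting tried, 11 of the 16 WT calls and 10 of the 17 KO calls held. The calls lost under at least 1 setting were those of HSPA5, HSP90B1, CRELD2, SEC61A1 and SEC24D in WT and of HSPA5, PDIA6, XBP1, CREB3L1, SEC61A1, SEC61B and SEC24D in KO. In these bulk cultures, a change in the share of a cell type and a change in the RNA of each cell cannot be told apart. The summed fibroblast markers were higher with TGF-β alongside these genes. In the treated libraries COL1A1 and COL1A2 gave the largest parts of that sum, in CPM not scaled to length. The median log2 fold change of the 14 was -0.024 in WT and 0.045 in KO. COL1A1, COL1A2, PDGFRB and ALDH1A2 rose past the threshold in both genotypes, DCN and OGN fell past it in WT, and PDGFRA fell past it in both. The part of such cells in the result was not tested.

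**Figure D2:**
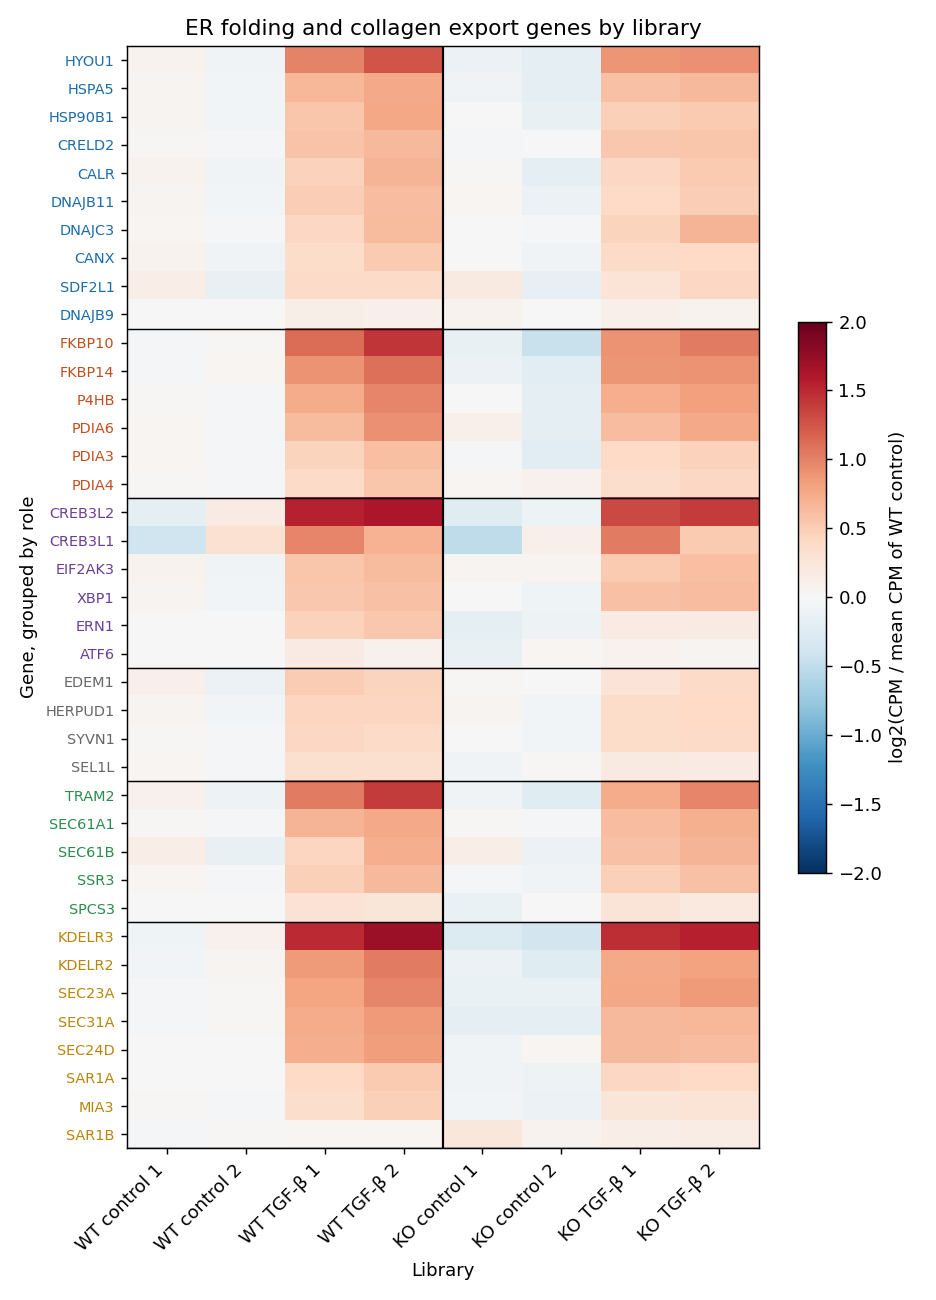
Level of each of the 39 genes (rows, grouped by role, ordered within a role by the WT fold change) in each of the 8 libraries (columns), as log2 of CPM over the mean of the WT controls. The 4 libraries with TGF-β are redder than the 4 controls in nearly every row, most in KDELR3, CREB3L2 and FKBP10 and least in DNAJB9, ATF6 and SAR1B.

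**Figure D3:**
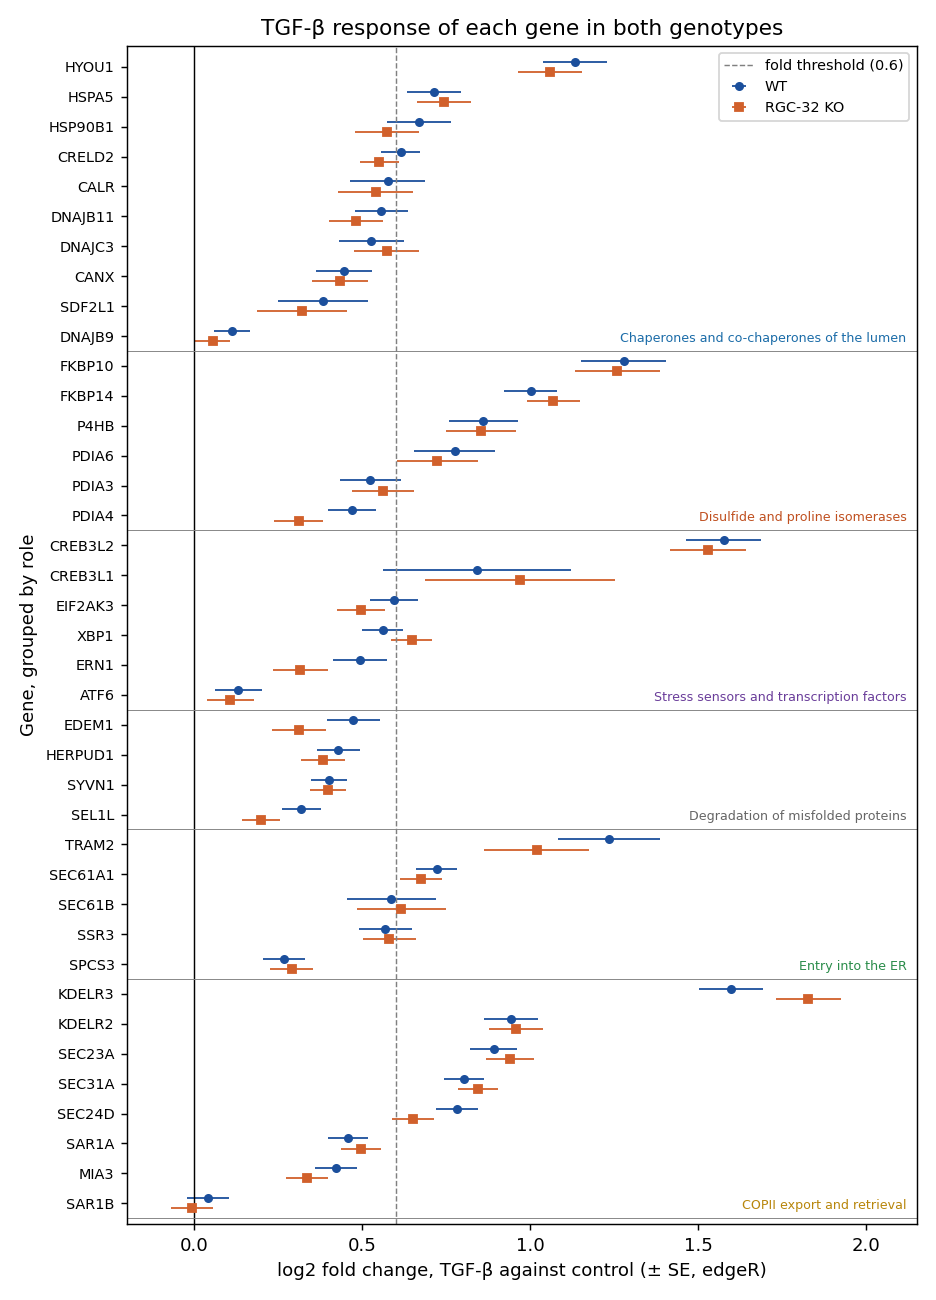
Fitted log2 fold change with TGF-β (points; bars are the SE from edgeR, n = 2 libraries per group) for WT (circles) and RGC-32 KO (squares), grouped by role; the dashed line marks 0.6. Values run from near 0 for SAR1B to 1.60 in WT and 1.83 in KO for KDELR3, and the genotypes lie close together for nearly all genes.

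Export and retrieval genes had the second highest median of the 6 roles, 0.79 in WT and 0.75 in KO, and 5 of 8 passed the threshold in each genotype. KDELR3 (chr15:79516411-79527739, plus strand, GENCODE annotation of GRCm38), a receptor that returns escaped ER residents from the Golgi, had the largest fold change of the list. KDELR3 stood at 21.6 and 24.2 CPM in the WT control libraries and at 64.3 and 74.6 CPM after TGF-β, and at 19.0 and 17.8 and then 63.4 and 67.4 CPM in the KO libraries. The fitted change was 3.03-fold in WT (log2 1.60 ± 0.095 SE, adjusted p = 9.23e-05) and 3.55-fold in KO astrocytes (log2 1.83 ± 0.10 SE, adjusted p = 7.28e-05). KDELR2, another receptor for the same retrieval signal, rose less. In WT astrocytes KDELR2 went from 93.1 and 100.3 CPM to 174 and 198 CPM, and in KO astrocytes from 89.4 and 81.7 CPM to 164 and 168 CPM. KDELR2 changed by 0.94 ± 0.080 on the log2 scale in WT (adjusted p = 2.52e-04) and by 0.96 ± 0.081 in KO astrocytes (adjusted p = 3.01e-04). The treated libraries of both receptors lay well above their controls. Per length, KDELR2 was the higher in controls, at 49.3 ± 2.08 FPKM against 14.8 ± 0.918 for KDELR3 in WT.

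The COPII coat has an inner shell of SEC23 and SEC24 proteins and an outer shell of SEC13 and SEC31, set down by the SAR1 GTPase. SEC23A, an inner coat gene whose loss is known to block collagen export, was on chr12:58958383-59012017, minus strand. The SEC23A level was 108 and 110.3 CPM in WT controls, 189 and 215 CPM in WT with TGF-β, 99.5 and 99.9 CPM in KO controls and 187 and 196 CPM in KO with TGF-β. edgeR put the SEC23A log2 change at 0.89 ± 0.071 for WT (adjusted p = 2.10e-04) and at 0.94 ± 0.072 for KO astrocytes (adjusted p = 2.06e-04). SEC24D, its cargo-binding partner and also a gene of inherited bone disease, rose too. SEC24D stood at 127 and 128 CPM in the WT control libraries and at 212 and 228 CPM after TGF-β, and at 122 and 131 and then 201 and 195 CPM in the KO libraries. SEC24D changed by 0.78 ± 0.063 on the log2 scale in WT (adjusted p = 2.10e-04) and by 0.65 ± 0.063 in KO astrocytes (adjusted p = 4.92e-04). SEC31A forms the outer cage of the coat. In WT astrocytes SEC31A went from 177 and 184 CPM to 302 and 327 CPM, and in KO astrocytes from 159.9 and 158 CPM to 284 and 286 CPM. edgeR put the SEC31A log2 change at 0.80 ± 0.059 for WT (adjusted p = 1.69e-04) and at 0.84 ± 0.060 for KO astrocytes (adjusted p = 1.84e-04). The groups did not overlap for any of these 3 coat genes. The SAR1 GTPases split: SAR1A rose at any fold change, from 184 and 185 to 242 and 264 CPM in WT (log2 fold change 0.46 in WT and 0.50 in KO), whereas SAR1B stood at 68.7 and 70.7 and then 71.9 and 71.5 CPM (log2 fold change 0.040 in WT and -0.0066 in KO). The SAR1B change had adjusted p = 0.655 in WT and 0.947 in KO, its WT 95% interval was -0.10 to 0.19, and its sign turned with other scalings. No 31-base stretch of either SAR1 transcript occurs in another gene's transcripts. MIA3, which encodes the receptor TANGO1 that loads procollagen into large carriers, rose modestly (log2 fold change 0.42 in WT and 0.34 in KO, adjusted p = 0.00206 and 0.00644) and stayed below the fold limit. About 8.91% of the SEC23A exon bases overlap a gene on the opposite strand, which an unstranded library cannot separate.

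**Figure D4:**
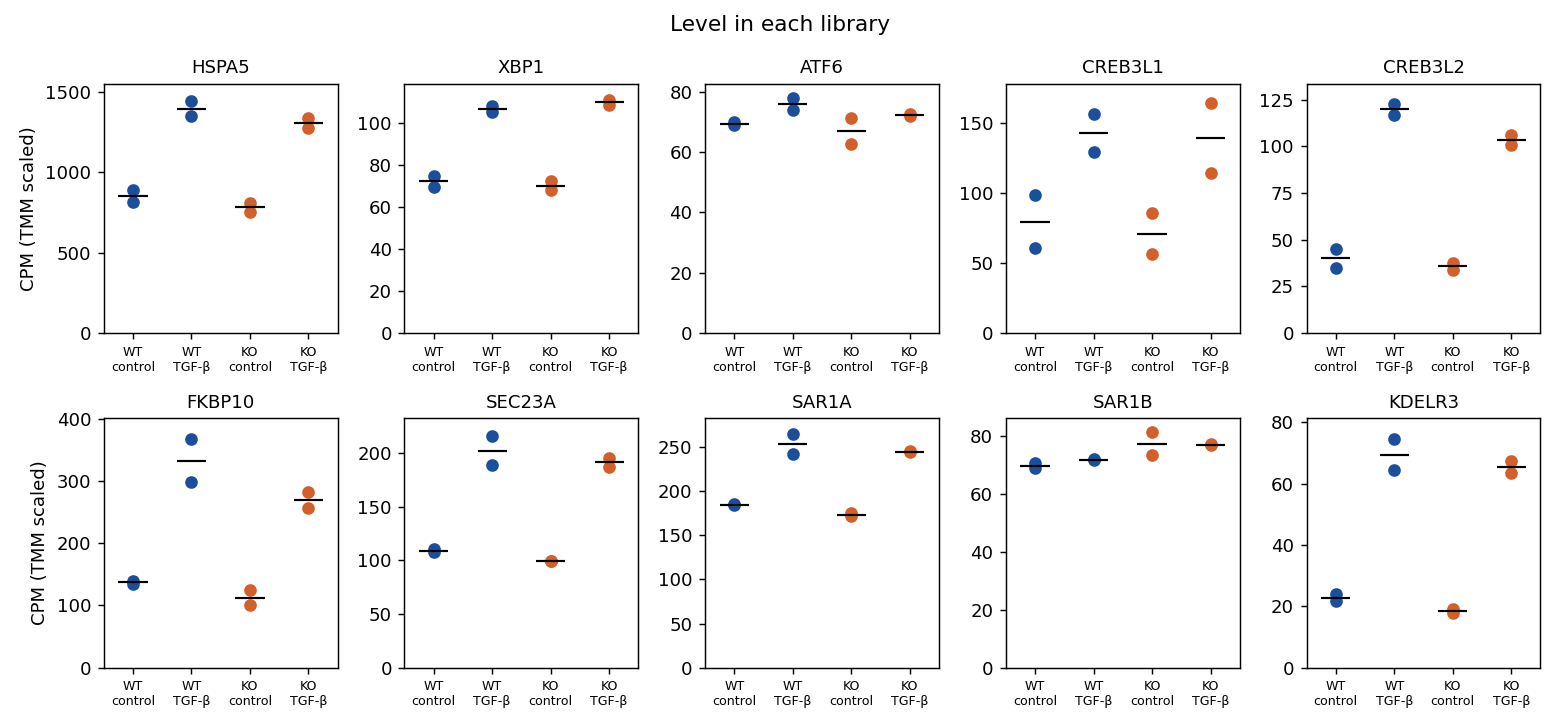
CPM (TMM scaled, linear axis from 0) of 10 genes in each of the 8 libraries; points are libraries and bars are group means (n = 2). Treated points lie above the controls for HSPA5, XBP1, CREB3L1, CREB3L2, FKBP10, SEC23A, SAR1A and KDELR3, ATF6 differs little, and SAR1B is flat.

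The isomerases had the highest median of the 6 roles, 0.82 in WT and 0.79 in KO, and all 6 rose at any fold change in both genotypes, with the same number, 4, past the fold limit in each. FKBP10 (chr11:100415697-100424824, plus strand) encodes a proline isomerase that assists type I procollagen folding and is mutated in brittle bone disease. The FKBP10 level was 135 and 139 CPM in WT controls, 298 and 368 CPM in WT with TGF-β, 124 and 100.4 CPM in KO controls and 256 and 282 CPM in KO with TGF-β. The fitted change was 2.43-fold in WT (log2 1.28 ± 0.13 SE, adjusted p = 4.40e-04) and 2.39-fold in KO astrocytes (log2 1.26 ± 0.13 SE, adjusted p = 5.87e-04). FKBP14, a related isomerase mutated in a form of Ehlers-Danlos syndrome, also rose. In WT astrocytes FKBP14 went from 58.0 and 61.3 CPM to 111 and 128 CPM, and in KO astrocytes from 54.9 and 51.1 CPM to 110.5 and 112 CPM. edgeR put the FKBP14 log2 change at 1.00 ± 0.079 for WT (adjusted p = 1.97e-04) and at 1.07 ± 0.080 for KO astrocytes (adjusted p = 2.01e-04). Treated levels of both were clearly apart from the controls. P4HB encodes protein disulfide isomerase, which is also the beta subunit of collagen prolyl 4-hydroxylase. P4HB stood at 515 and 502 CPM in the WT control libraries and at 846 and 1000.4 CPM after TGF-β, and at 514 and 445 and then 838 and 894 CPM in the KO libraries. P4HB changed by 0.86 ± 0.10 on the log2 scale in WT (adjusted p = 9.24e-04) and by 0.85 ± 0.10 in KO astrocytes (adjusted p = 0.00117). PDIA6, another disulfide isomerase of the lumen, followed it. The PDIA6 level was 319.8 and 303 CPM in WT controls, 481 and 585 CPM in WT with TGF-β, 334 and 275 CPM in KO controls and 479 and 525 CPM in KO with TGF-β. edgeR put the PDIA6 log2 change at 0.78 ± 0.12 for WT (adjusted p = 0.00281) and at 0.72 ± 0.12 for KO astrocytes (adjusted p = 0.00450). PDIA3, the partner of the lectin chaperones (log2 fold change 0.52 in WT and 0.56 in KO), and PDIA4 (log2 fold change 0.47 in WT and 0.31 in KO) rose below the fold limit. FKBP10, FKBP14, P4HB and PDIA6 therefore all stood above PDIA3 and PDIA4 in both genotypes. The higher genes were thus not only those tied to collagen, and the difference between genes was not tested. Of the exon bases, 6.58% in FKBP10 and 5.01% in FKBP14 overlap a gene on the opposite strand.

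Of the 10 lumenal chaperones and co-chaperones, 8 rose at any fold change in each genotype, and 4 passed the fold limit in WT and 2 in KO (median 0.57 and 0.55). HYOU1, the nucleotide exchange factor of BiP, had the largest change of the group. HYOU1 stood at 188 and 169 CPM in the WT control libraries and at 356 and 426 CPM after TGF-β, and at 165 and 155 and then 329 and 338 CPM in the KO libraries. The fitted change was 2.19-fold in WT (log2 1.13 ± 0.095 SE, adjusted p = 2.42e-04) and 2.08-fold in KO astrocytes (log2 1.06 ± 0.10 SE, adjusted p = 3.73e-04). HSPA5 (chr2:34771970-34777547, plus strand) encodes BiP itself, the most widely used readout of ER stress. In WT astrocytes HSPA5 went from 887 and 817 CPM to 1349 and 1444 CPM, and in KO astrocytes from 810.4 and 755 CPM to 1278 and 1341 CPM. HSPA5 changed by 0.71 ± 0.080 on the log2 scale in WT (adjusted p = 7.25e-04) and by 0.74 ± 0.081 in KO astrocytes (adjusted p = 7.53e-04). BiP transcript rose less than HYOU1, and its change fell short of the fold limit in both genotypes on the Cufflinks values. HSP90B1 encodes the lumenal member of the HSP90 family. The HSP90B1 level was 896 and 834 CPM in WT controls, 1272 and 1481 CPM in WT with TGF-β, 862 and 782 CPM in KO controls and 1204 and 1244 CPM in KO with TGF-β. edgeR put the HSP90B1 log2 change at 0.67 ± 0.10 for WT (adjusted p = 0.00191) and at 0.57 ± 0.10 for KO astrocytes (adjusted p = 0.00443). CRELD2, a stress-induced ER protein, was just past the limit in WT. CRELD2 stood at 47.7 and 45.9 CPM in the WT control libraries and at 69.6 and 73.7 CPM after TGF-β, and at 46.0 and 47.1 and then 67.7 and 68.8 CPM in the KO libraries. CRELD2 changed by 0.61 ± 0.058 on the log2 scale in WT (adjusted p = 3.56e-04) and by 0.55 ± 0.058 in KO astrocytes (adjusted p = 6.72e-04). Both HSP90B1 and CRELD2 lay near 0.6 in both genotypes, and 10.3% of the HSP90B1 exon bases overlap a gene on the opposite strand.

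The other chaperones rose below the fold limit or did not pass the test. The lectin chaperones CALR (log2 fold change 0.58 in WT and 0.54 in KO) and CANX (log2 fold change 0.44 in WT and 0.43 in KO), the co-chaperones DNAJB11 (log2 fold change 0.56 in WT and 0.48 in KO) and DNAJC3 (log2 fold change 0.53 in WT and 0.57 in KO) all passed at any fold change. SDF2L1, a partner of DNAJB11 in the lumen, did not (log2 fold change 0.38 in WT and 0.32 in KO, adjusted p = 0.0602 and 0.114), with the widest intervals of the group, 0.074 to 0.69 in WT. DNAJB9, a co-chaperone known as a sensitive target of spliced XBP1, had 0.11 in WT (log2 fold change, 95% interval -0.0090 to 0.23, adjusted p = 0.138) and 0.054 in KO (-0.067 to 0.18, adjusted p = 0.473). The DNAJB9 libraries spanned only 71.4 to 77.9 CPM over all 4 groups, so the upper bound of its change was well under the fold limit. About 10.8% of its 31-base stretches occur in another annotated gene, so its count is less certain than most.

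The sensors and factors ranged from near no change to the second largest of the list. CREB3L2 (chr6:37327255-37442146, minus strand), an ER-anchored factor that drives the collagen-secreting programme of cartilage cells, passed in both genotypes. The CREB3L2 level was 35.1 and 45.2 CPM in WT controls, 117 and 123 CPM in WT with TGF-β, 34.0 and 37.6 CPM in KO controls and 101 and 106 CPM in KO with TGF-β. The fitted change was 2.98-fold in WT (log2 1.58 ± 0.11 SE, adjusted p = 1.43e-04) and 2.89-fold in KO astrocytes (log2 1.53 ± 0.11 SE, adjusted p = 2.01e-04). The lowest treated library, at 101 CPM, was above the highest control, at 45.2 CPM. CREB3L1, its relative known from bone cells, was more variable. CREB3L1 stood at 60.5 and 98.7 CPM in the WT control libraries and at 156 and 129 CPM after TGF-β, and at 56.1 and 85.8 and then 164 and 114 CPM in the KO libraries. edgeR put the CREB3L1 log2 change at 0.84 ± 0.28 for WT (adjusted p = 0.0521) and at 0.97 ± 0.28 for KO astrocytes (adjusted p = 0.0371). Its groups did not overlap, but the replicates of a group differed more than for any other gene of the list in 3 of the 4 groups, and the KO call was lost without KO control replicate 1 (log2 0.68) or KO TGF-β replicate 1 (0.68), with DESeq2, and on the Cufflinks values with either pseudocount. In WT the gene passed without WT control replicate 2 (log2 1.22). XBP1 passed in KO and was just under the fold limit in WT. In WT astrocytes XBP1 went from 74.9 and 69.7 CPM to 105 and 108 CPM, and in KO astrocytes from 72.4 and 68.0 CPM to 109 and 111 CPM. XBP1 changed by 0.56 ± 0.060 on the log2 scale in WT (adjusted p = 6.06e-04) and by 0.65 ± 0.061 in KO astrocytes (adjusted p = 4.39e-04). Counts per gene do not separate spliced from unspliced XBP1.

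The 3 sensors of the unfolded protein response differed among themselves. EIF2AK3 encodes PERK, which slows translation under stress. The EIF2AK3 level was 39.3 and 35.4 CPM in WT controls, 54.9 and 57.8 CPM in WT with TGF-β, 38.9 and 38.9 CPM in KO controls and 53.5 and 56.3 CPM in KO with TGF-β. edgeR put the EIF2AK3 log2 change at 0.59 ± 0.070 for WT (adjusted p = 8.82e-04) and at 0.50 ± 0.071 for KO astrocytes (adjusted p = 0.00229). ERN1 encodes IRE1, the kinase and ribonuclease that splices XBP1 transcripts. ERN1 stood at 17.3 and 17.3 CPM in the WT control libraries and at 23.7 and 25 CPM after TGF-β, and at 15.1 and 16.1 and then 19.4 and 19.4 CPM in the KO libraries. ERN1 changed by 0.49 ± 0.080 on the log2 scale in WT (adjusted p = 0.00322) and by 0.32 ± 0.082 in KO astrocytes (adjusted p = 0.0248). Both rose at any fold change without reaching the limit. ATF6, which is activated by cleavage in the Golgi rather than by new transcript, did not pass. In WT astrocytes ATF6 went from 69.0 and 70.0 CPM to 78.1 and 74.1 CPM, and in KO astrocytes from 62.8 and 71.4 CPM to 72.6 and 71.9 CPM. edgeR put the ATF6 log2 change at 0.13 ± 0.070 for WT (adjusted p = 0.188) and at 0.11 ± 0.070 for KO astrocytes (adjusted p = 0.291). The KO groups came close, with a KO control library at 71.4 CPM and a KO treated library at 71.9 CPM. The 95% interval of the ATF6 change in WT was -0.031 to 0.29. Transcript counts do not measure the activation of any of these proteins, and 8.05% of the EIF2AK3 exon bases overlap an opposite-strand gene.

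The degradation genes had the lowest median of the 6 roles, 0.41 in WT and 0.35 in KO, and 0 of 4 past the fold limit, although all 4 rose at any fold change in both genotypes. They clear misfolded proteins from the ER lumen. EDEM1, a lectin-like protein that directs misfolded glycoproteins to degradation (log2 fold change 0.47 in WT and 0.31 in KO), HERPUD1, a stress-induced membrane protein of the degradation complex (log2 fold change 0.43 in WT and 0.38 in KO), the ubiquitin ligase SYVN1 (log2 fold change 0.40 in WT and 0.40 in KO) and its partner SEL1L (log2 fold change 0.32 in WT and 0.20 in KO) made up the group. HERPUD1 went from 55.3 and 51.0 to 71.2 and 71.8 CPM in WT and from 55.0 and 51.3 to 68.3 and 70.2 CPM in KO. This compact change had adjusted p = 0.00234 in WT and 0.00456 in KO.

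All 5 entry genes rose at any fold change, with 2 past the limit in WT and 3 in KO (median 0.59 and 0.62). TRAM2, a membrane protein of the translocation site that has been linked to type I collagen synthesis, had the largest fold change of these but a low level. The TRAM2 level was 10.7 and 9.43 CPM in WT controls, 20.8 and 26.7 CPM in WT with TGF-β, 9.57 and 8.52 CPM in KO controls and 16.9 and 19.8 CPM in KO with TGF-β. The fitted change was 2.35-fold in WT (log2 1.23 ± 0.15 SE, adjusted p = 0.00106) and 2.03-fold in KO astrocytes (log2 1.02 ± 0.16 SE, adjusted p = 0.00323). SEC61A1 encodes the pore of the translocation channel. In WT astrocytes SEC61A1 went from 175 and 169 CPM to 277 and 291 CPM, and in KO astrocytes from 175 and 168 CPM to 264 and 284 CPM. SEC61A1 changed by 0.72 ± 0.062 on the log2 scale in WT (adjusted p = 2.71e-04) and by 0.67 ± 0.062 in KO astrocytes (adjusted p = 4.08e-04). The channel subunit SEC61B passed in KO alone, by a small margin. SEC61B stood at 41.5 and 33.8 CPM in the WT control libraries and at 51.0 and 62.2 CPM after TGF-β, and at 41.2 and 34.9 and then 56.4 and 60.0 CPM in the KO libraries. edgeR put the SEC61B log2 change at 0.59 ± 0.13 for WT (adjusted p = 0.0127) and at 0.62 ± 0.13 for KO astrocytes (adjusted p = 0.0121). Of the 31-base stretches of SEC61B, 23.5% occur in other annotated genes, so its counts are less certain. SSR3, a subunit of the translocon-associated protein complex (log2 fold change 0.57 in WT and 0.58 in KO), and SPCS3, a subunit of signal peptidase (log2 fold change 0.27 in WT and 0.29 in KO), rose below the limit. In SEC61A1, 8.16% of exon bases overlap an opposite-strand gene.

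Whether loss of RGC-32 altered the response was asked by the interaction, the WT minus KO difference of the log2 fold changes. None of the 39 passed the threshold (0 called), against 0% of all tested genes. At an unadjusted p below 0.05 there were 0 of the 39, beside 381 (2.82%) of all tested genes. A list of 39 is too small to set a count of 0 apart from that share. The differences ran from -0.23 for KDELR3 (95% interval -0.54 to 0.083) to 0.22 for TRAM2 (-0.29 to 0.72). For 37 of the 39, the whole 95% interval lay within 0.6 of 0 on the log2 scale, so that a difference of the size of the fold limit lay outside it. The exceptions were TRAM2 and CREB3L1, the latter with the widest interval (-1.04 to 0.79). The median margin to either side of the estimate was 0.26. Of the genes that passed the threshold in 1 genotype alone, HSP90B1 differed by 0.10, CRELD2 by 0.064, XBP1 by -0.086 and SEC61B by -0.029. CREB3L1, past the threshold in KO alone, differed by -0.13, with the wide interval given above. None of these differences passed.

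**Figure D5:**
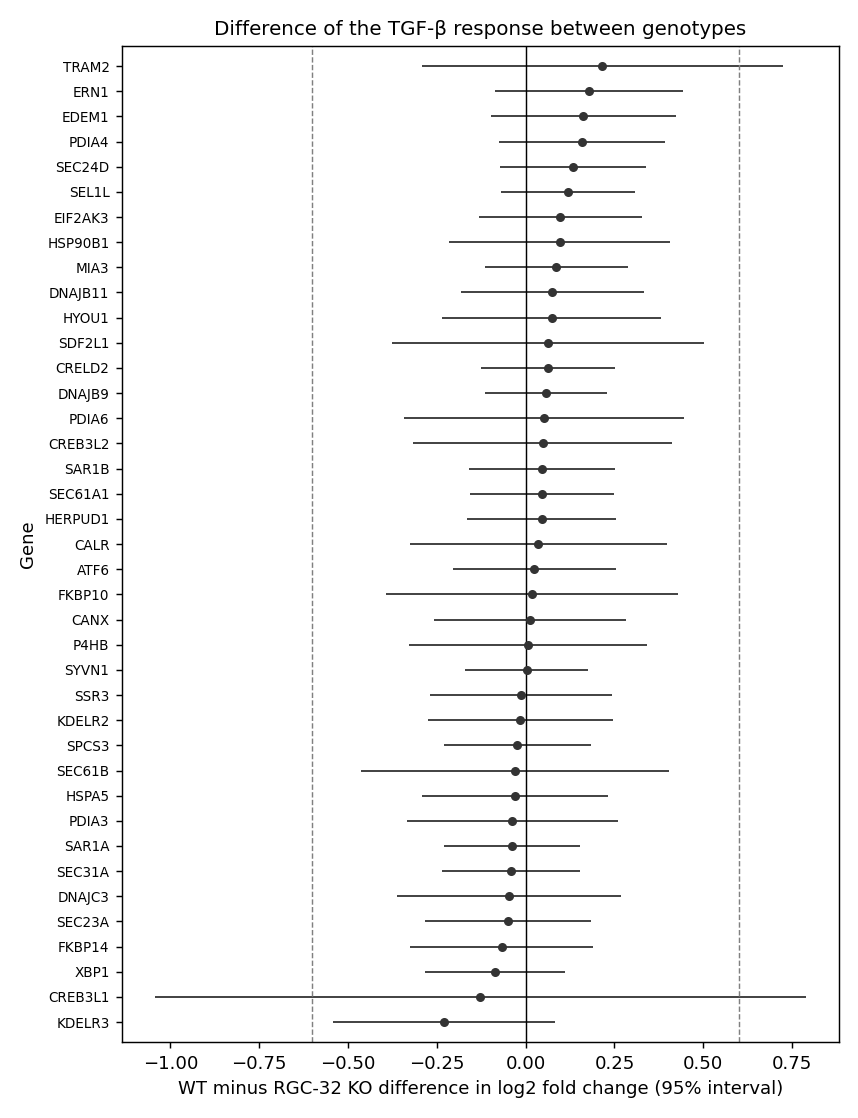
WT minus RGC-32 KO difference of the log2 fold change with TGF-β for each gene (points; bars are 95% intervals from the edgeR fit), ordered by the difference; dashed lines mark -0.6 and 0.6. Every interval includes 0, and those of CREB3L1 and TRAM2 alone reach past a dashed line.

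The genotypes were also compared at each treatment. Among controls 0 of the 39 passed the threshold (0.037% of all genes did), and 3 had an unadjusted p below 0.05, as did 6.84% of all tested genes. These were KDELR3 (WT minus KO 0.32, 95% interval 0.079 to 0.55, adjusted p = 0.640), SEC31A (0.18, adjusted p = 0.640) and SAR1B (-0.15, adjusted p = 0.725). With TGF-β 0 of the 39 passed (0.0444% of all genes did), and 8 had an unadjusted p below 0.05, namely HYOU1, FKBP10, ERN1, SEL1L, TRAM2, SEC24D, SEC31A and MIA3, where 11.7% of all tested genes had such a p. ERN1 had the smallest p of these, with WT minus KO 0.33 (95% interval 0.14 to 0.51, adjusted p = 0.202), and TRAM2 the largest difference, 0.37 (0.034 to 0.71, adjusted p = 0.387). The fitted level was higher in WT for 32 of 39 genes without and 35 of 39 with TGF-β, where 52.4% and 49.9% of all genes were higher in WT. The medians were small, 0.050 and 0.086 on the log2 scale. The summed fibroblast markers were also higher in WT and the summed astrocyte markers higher in KO (values above), and their part in this pattern was not tested. The comparisons share libraries and are not independent of each other.

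A wider list of 83 genes of the same pathways, named for their roles, held 80 tested genes. In WT 12 of the 80 rose past the threshold and 0 fell, and in KO 11 rose and 0 fell, where 7.72% and 6.61% of all tested genes rose. At any fold change 51 rose and 1 fell in WT, and 53 rose and 1 fell in KO (18.6% and 16.6% of all genes rose), with a median of 0.30 and 0.35. By role, 6 of 19 further folding genes passed in WT and 5 in KO, 2 and 3 of 13 further COPII and retrieval genes, 2 of 18 entry genes in each, 1 of 10 genes of the COPI coat and its GTPase in each, 1 and 0 of 8 sensors and processing genes, and 0 of 12 degradation genes in either. Groups of this size are too small to set a count of 0 apart from the share over all genes. SERPINH1, the collagen-specific chaperone, stood at 825 and 826 CPM in WT controls, 1259.9 and 1546 CPM in WT with TGF-β, 757 and 683 CPM in KO controls, and 1169 and 1269.7 CPM in KO with TGF-β. The SERPINH1 response came to 0.76 on the log2 scale in either genotype (adjusted p = 0.00189 in WT and 0.00236 in KO).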

How the data were processed

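Astrocyte RNA had been sequenced unstranded as 8 libraries (4 groups of 2). Per the labels and the study's methods, the authors aligned the reads to mm10 with STAR, and deposited raw gene counts and Cufflinks FPKM values, versions not given in the sources used here. Their tables of fold changes and p-values were not used. From the counts, edgeR 4.0.16 (R 4.3.3) filtered low counts (filterByExpr), scaled by TMM and fitted 1 quasi-likelihood model over the 4 groups. Changes past an absolute log2 fold change of 0.6 with a Benjamini-Hochberg adjusted p under 0.05 over all 13509 tested genes were called. DESeq2 1.42.0, limma 3.58.1 on log2(FPKM + 1), other scalings and filters, and leaving out each library were alternatives. Scripts were tested on simulated data.

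The genes and lists were chosen with earlier results of these data known. Values per library were planned for each gene past the threshold in any comparison and for HSPA5, ATF6, ERN1, EIF2AK3, XBP1, CREB3L1, CREB3L2, SEC23A, SEC24D and KDELR3. The others were to be summarised, and outside the list only Rgcc and SERPINH1 were to be named. Values per library of SAR1A, SAR1B, HERPUD1, CSPG4 and PDIA5 were added after they were seen. The other markers and wider pathway genes named in this report were also named outside that plan. Libraries held 14920561 to 18956038 counts, replicates differed by more than sampling noise (chi-square per degree of freedom 6.28 to 10.4), and 21 rows had names that a spreadsheet had turned into dates. Promoters came from RefSeq (GRCm38.p6), gene positions and shared 31-base stretches from GENCODE transcripts of GRCm38.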

Additional observations from a re-analysis of the deposited data

How the results depend on the processing

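Without the fold limit, 34 genes passed in WT and 35 in KO. On the Cufflinks values 11 of the 39 passed in WT, against 16 from the counts, with a pseudocount of 1 or 0.1. In KO 10 passed with either pseudocount, against 17 from the counts. Over all genes, calls in both genotypes were fewer than from the counts with a pseudocount of 1 and more with 0.1. The cause of these differences was not tested. Leaving out each replicate in turn gave 14 to 23 calls in WT and 15 to 18 in KO. Upper quartile scaling moved the median log2 fold change of the 39 genes to 0.49 in WT (0.58 with TMM) and also to 0.49 in KO (0.57 with TMM), while the median of all tested genes moved to -0.0905 and -0.0798. The sign turned for SAR1B in WT with upper quartile scaling (-0.046) and on the Cufflinks values (-0.12 with either pseudocount), for SAR1B in KO without KO control replicate 1 (0.052, with -0.080 to 0.052 over the libraries left out), and for DNAJB9 in KO with upper quartile scaling (-0.029) and on the Cufflinks values (-0.030 with either pseudocount). Over 1014 gene and setting pairs, 946 kept their direction and their side of the threshold, 41 lost and 20 gained the call, and 7 changed sign. The interaction and genotype comparisons had 0 of the 39 past the threshold under each alternative. The labels do not say that replicate numbers pair the libraries. Deviations of same-numbered libraries correlated at -0.34 between control and TGF-β in WT and -0.35 in KO, at 0.49 between genotypes in controls and 0.25 with TGF-β, and at -0.48 and -0.51 across both. With the replicate block 16 of the genes passed in WT and 17 in KO. With the numbers crossed between control and TGF-β, a pairing added after seeing the data, 17 passed in each. In the interaction and genotype comparisons 0 of the 39 passed with the crossed numbers, also at any fold change. Over all tested genes, calls with TGF-β in both genotypes were fewer than in the main fit with the replicate block and more with the crossed numbers. The nearly constant counts of the 39 therefore stood beside a share over all genes that moved both ways. With 2 libraries a group, changes well below the fold limit were resolved only for genes with little spread.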

Other observations

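Some genes of the wider pathway list, chosen here after their values were seen, moved as far as the leading genes of the report. PDIA5, a disulfide isomerase, stood at 11.5 and 12.7 CPM in WT controls and 34.3 and 42.1 CPM with TGF-β, a log2 change of 1.65 for WT, and 1.67 for KO (adjusted p = 0.000133 and 0.000174, edgeR). FKBP11, a low-level proline isomerase of secretory cells, had 1.57 and 1.83 (adjusted p = 0.000695 and 0.000500). SEC16B, which helps organise ER exit sites, had 1.41 and 1.55 (adjusted p = 0.00130 and 0.00144, edgeR), beside 0.52 and 0.39 for SEC16A. The SEC16B level was low, between 1.47 and 5.44 CPM over the 8 libraries. DDIT3, the stress factor CHOP, did not pass in WT (log2 fold change -0.20, adjusted p = 0.181) or in KO (-0.097, adjusted p = 0.528). PPP1R15A, which reverses the translation block of PERK, did not pass in WT (log2 fold change -0.15, adjusted p = 0.478) or in KO (-0.11, adjusted p = 0.608). In the same branch, TRIB3 passed in WT (log2 fold change 0.92, adjusted p = 0.0254) but not in KO (0.52, adjusted p = 0.167). The TRIB3 level was also low, between 3.16 and 8.18 CPM over the 8 libraries. ATF4 rose below the fold limit in both genotypes (0.47 and 0.48, adjusted p = 0.0215 and 0.0227). The interaction of TRIB3 did not pass (WT minus KO 0.40, adjusted p = 1).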
